A study of Mus musculus with 3 samples.

Results

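Beta cells that carried RNA of Aldh1a3 were examined in single-cell RNA of mouse pancreatic islets. Each captured RNA molecule was counted as 1 unique molecular identifier (UMI). To count as a beta cell, a barcode needed 500 or more detected genes, with mitochondrial genes taking no more than 20% of its UMIs. It also had to have at least 15% of its UMIs from Ins1 and Ins2, less than 1% each from Gcg, Sst and Ppy, and no excess of the pseudogene Ftl1-ps1. Members were chosen by the measured Aldh1a3 count itself, as beta cells with at least 1 Aldh1a3 UMI, and they numbered 623 of 6468 beta cells among 24590 barcodes. The islets came from male C57Bl6/J mice, retired breeders of 7 to 8 months, and 3 libraries were made with 10x Genomics 3' chemistry. The S961 library came from mice with pumps that gave S961, a peptide that blocks the insulin receptor, at a labelled 20 nM per week for 2 weeks. The recovered library came from mice given S961 whose pumps had been taken out, and the control library from mice with pumps that held no S961. All islets were cultured overnight and dissociated with TrypLE. The labels give neither the length of recovery nor the number of mice in a library, and each group had 1 library, so a difference between groups is a difference between libraries.

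Aldh1a3 is an aldehyde dehydrogenase that turns retinaldehyde into retinoic acid. It is nearly silent in mature mouse beta cells and is known as a mark of beta cells that lose mature features in diabetic mice. The gene lies on chromosome 7 at 66390890 to 66427517 on the minus strand of GRCm38 (mm10) and codes for protein. Retinoic acid acts through nuclear receptors of the Rar and Rxr families, and Cyp26 enzymes break it down.

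Members were most frequent in the S961 library and least frequent in the recovered library. They were 295 of 1559 beta cells in S961 (18.9%, 95% interval 17 to 21), 90 of 2063 in recovered (4.36%, 3.52 to 5.34) and 238 of 2846 in control (8.36%, 7.37 to 9.44). These intervals do not overlap, and all intervals here are exact binomial or Poisson intervals that cover counting error only. Summed over all beta cells, Aldh1a3 stood at 34.3 CPM (UMIs scaled to a common library total) in S961, 6.79 in recovered and 15.4 in control. The order was kept at equal depth, since the share was 11.0% in S961, 2.64% in recovered and 6.09% in control when each cell was thinned to 5000 UMIs. Thinning to 2000 UMIs gave 5.24%, 1.34% and 2.84% in the same order. Cells shallower than the thinned depth were left out, which removed 432 S961, 171 recovered and 496 control beta cells at 5000 UMIs, and 89, 55 and 99 at 2000.

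The RNA was not spread over all islet cells. Among glucagon-producing alpha cells, 2 of 431 held Aldh1a3 in S961 (0.464%), 0 of 315 in recovered, which allows a share of up to 0.952% by 3 counts of the total and 1.16% by the exact interval, and 1 of 285 in control (0.351%). Median depths were 9739, 5658 and 4333 UMIs for these alpha cells, against 13509, 10288 and 7622 UMIs for beta cells. Endothelial cells held Aldh1a3 in 0 of 210 cells in S961, which allows up to 1.43% (exact interval 1.74%), in 1 of 79 in recovered and in 0 of 141 in control, which allows up to 2.13% (exact interval 2.58%), at median depths of 6041.5, 4306 and 3196 UMIs. Somatostatin-producing delta cells held it in 5.14% of cells in S961, 2.91% in recovered and 2.84% in control, at median depths of 9489.5, 6111.5 and 4244 UMIs. Thinned to 5000 UMIs, the delta shares were 3.92%, 3.09% and 3.09%, the recovered one above that of recovered beta cells. Stromal cells also held the RNA: 19 of 169 cells in S961 (11.2%), 7 of 40 in recovered (17.5%) and 2 of 29 in control (6.90%). They had 253, 496 and 55.4 CPM, at median depths of 6081, 5632 and 2248 UMIs. Those cells held 375, 126 and 6 Aldh1a3 UMIs, and the ratio of variance to mean over stromal cells was 61.1, 72.7 and 4.27. Thinned to 5000 UMIs, the stromal shares were 11.1% of 117 cells, 30.0% of 20 and 20.0% of 5.

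**Figure D1:**
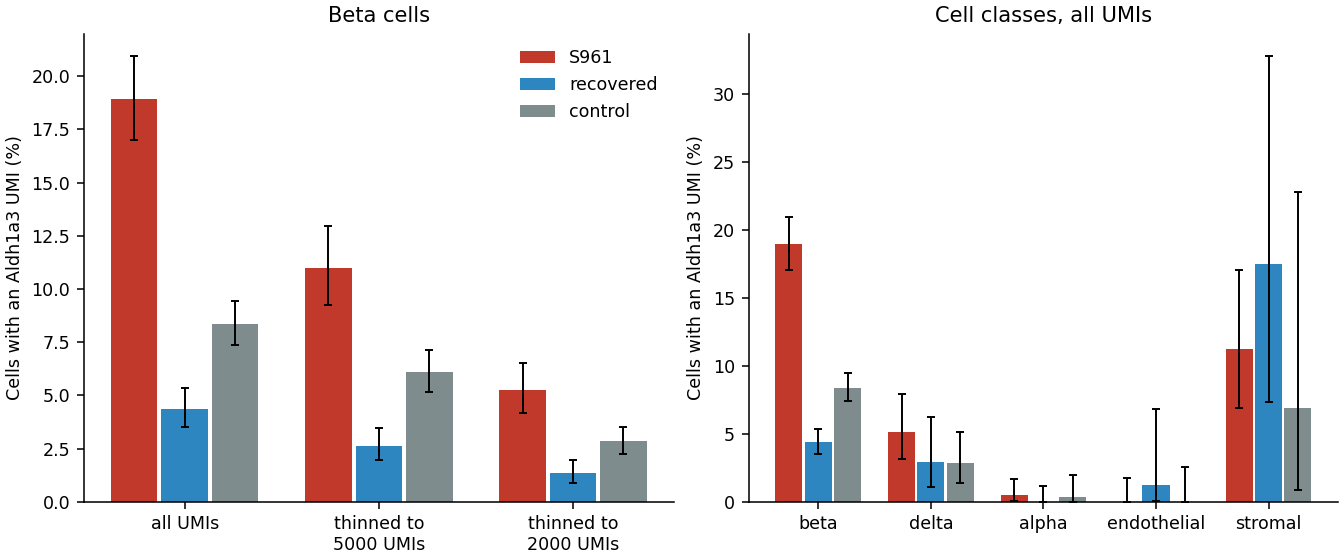
Percent of cells with at least 1 Aldh1a3 UMI (y axes) in the S961, recovered and control libraries, with exact 95% intervals over cells as bars. The left panel shows beta cells with all UMIs and after thinning each cell to 5000 or 2000 UMIs, and the right panel shows 5 cell classes with all UMIs. The S961 bar is the highest and the recovered bar the lowest of the beta bars at every depth, and the alpha bars lie under 0.5%.

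Members differed in how much Aldh1a3 RNA they held. A single UMI was found in 49.2% of members in S961, 68.9% in recovered and 74.4% in control. At least 3 UMIs were found in 28.5% of members in S961, 15.6% in recovered and 10.9% in control, and the highest cell held 19, 10 and 10. Cells with at least 5 UMIs carried 45.3% of the members' Aldh1a3 UMIs in S961, 18.4% in recovered and 9.83% in control. With all beta cells thinned to 2000 UMIs, the ratio of variance to mean of Aldh1a3 was 1.39 in S961, 1.19 in recovered and 1.22 in control, where counting alone gives about 1. These values describe the measure that chose the members and carry no test.

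**Figure D2:**
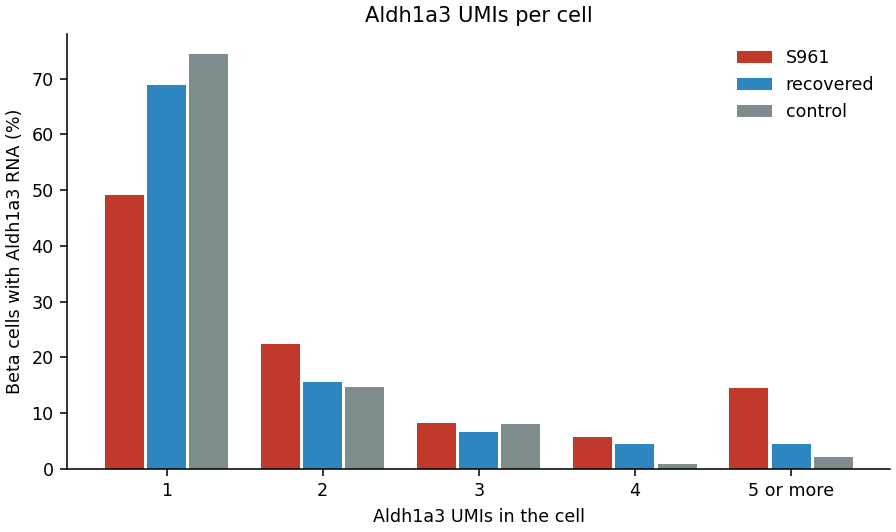
Percent of beta cells with Aldh1a3 RNA (y axis) by the number of Aldh1a3 UMIs in the cell (x axis) for the S961, recovered and control libraries. Cells with 5 or more UMIs made up 14.6% of members in S961, 4.44% in recovered and 2.10% in control.

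The share of members rose with depth in each library. In 3 groups of equal size by depth, from shallow to deep, the share with Aldh1a3 was 7.50%, 16.2% and 33.1% in S961, 1.31%, 3.93% and 7.85% in recovered, and 4.64%, 8.44% and 12% in control. Aldh1a3 CPM, already scaled for depth, was 33.2, 21.5 and 40.9 in S961, 3.28, 4.77 and 9.46 in recovered, and 13.4, 14.5 and 16.7 in control. Each member was therefore set against up to 2 beta cells of its own library with no Aldh1a3 UMI and a total within 10% of its own. This gave 569 matched cells for 295 members in S961, 179 for 90 in recovered and 476 for 238 in control, and 2 S961 members had no match. Median depth was 20106 UMIs in members and 19769 in matched cells in S961, 13049.5 and 12910 in recovered, and 8788 and 8789 in control. Insulin took a median of 34.9% of UMIs in members and 34.5% in matched cells in S961, 30.9% and 32.6% in recovered, and 30.3% and 31.6% in control. The mitochondrial share had medians of 4.52% and 4.71%, 5.72% and 6.64%, and 6.67% and 6.6% in the same pairs. The insulin threshold had few cells on either side: cells with 15% to 17% insulin UMIs included 4 with Aldh1a3 of 15 in S961, 1 of 36 in recovered and 3 of 60 in control, and cells with 13% to 15%, just outside, included 4 of 20, 3 of 22 and 7 of 55.

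RNA of other cell types was present on both sides. Cells with at least 20 UMIs of the acinar, endothelial, macrophage, T or NK, B or stromal markers were 26 of 295 members and 44 of 569 matched cells in S961, 0 of 90 and 1 of 179 in recovered, and 6 of 238 and 2 of 476 in control. The acinar list, with 12 of 12 markers detected in the S961 members, summed to 2666 CPM in members and 2277 CPM in matched cells there, and 85.4% of the members' share came from 1 cell. It summed to 157 and 174 CPM in recovered and to 48.2 and 178 CPM in control. The B list stood at 635 CPM in S961 members and 1.89 CPM in matched cells, with 99.6% in 1 cell. The stromal list stood at 128 CPM in control members and 3.60 CPM in matched cells. Of its 8 markers, 6 were detected in these members and 3 in the matched cells, with Pdgfrb and Rgs5 at 0 in both. Of 51 barcode sequences found in 2 libraries, members held 1 in S961, 0 in recovered and 2 in control.

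The first comparison asked which genes differed between beta cells with Aldh1a3 and matched beta cells without it, over the 3 libraries as pairs. Hap1, Ckb, Diras2 and the glycolytic genes Ldha and Pfkfb3 were higher in members, and Pyy, Rbp4 and Rasd1 were lower. Of these, Pfkfb3 lost its call in 11 of 18 alternative settings, Rbp4 in 10, Ldha in 9 and Rasd1 in 6. None of 30 mature beta-cell genes passed the test. UMIs were summed per library and class and tested with edgeR's quasi-likelihood test, with the library as a block. Of 10765 genes tested, 41 passed a Benjamini-Hochberg adjusted p of 0.05 (0.381%), 23 of them higher in members (0.214%) and 18 lower (0.167%), and 653 had an unadjusted p under 0.05. The list was thin: 27 of the 41 were detected in under 10% of cells in each of the 6 sums, and for 19 at least 50% of the UMIs on the higher side came from 1 cell. DESeq2 called 2 genes higher and 1 lower, and with no library block edgeR called 0, with 213 genes at an unadjusted p under 0.05.

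Hap1, which codes for a partner of huntingtin in vesicle transport, was called in more settings than any other gene named here. It stood at 203 CPM in members and 124 CPM in matched cells in S961, 189 and 104 CPM in recovered, and 118 and 86.1 CPM in control. All 3 pairs went the same way, with a fitted log2 fold change of 0.67 ± 0.08 (SE, edgeR adjusted p = 0.000345). It was called in 17 of 18 alternative settings, the exception being the fit with no library block, and its adjusted p ran from 2.1e-13 to 1. A UMI of Hap1 was found in 83.4% of members and 71.5% of matched cells in S961, 80.0% and 62.6% in recovered, and 51.3% and 42.4% in control. The gene lies on chromosome 11 at 100347327 to 100356128 on the minus strand of GRCm38.

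Enzymes of energy metabolism were among the higher genes. Ckb, the brain-type creatine kinase, had 294 CPM in members and 209 CPM in matched cells in S961, 247 and 192 CPM in recovered, and 229 and 180 CPM in control (log2 0.40 ± 0.07 SE, edgeR adjusted p = 0.00696). Ldha, the lactate dehydrogenase subunit that mature beta cells normally keep low, had 45.5 and 32.1 CPM in S961 members and matched cells, 23.2 and 16.0 CPM in recovered, and 68.5 and 49.6 CPM in control (log2 0.49 ± 0.10, adjusted p = 0.0357). Pfkfb3 makes the activator of phosphofructokinase. It had 23.7 and 16.1 CPM in S961, 18.5 and 9 CPM in recovered, and 22.1 and 12.8 CPM in control, members first (log2 0.68 ± 0.14, adjusted p = 0.0495). Without the S961 library the edgeR adjusted p was 0.28 for Ckb, 0.55 for Ldha and 0.18 for Pfkfb3, and without the control library it was 0.12 for Ldha and 0.097 for Pfkfb3. The adjusted p over all alternatives reached 1 for each of them.

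Other genes named by the rule had varied roles. Diras2, a small GTPase of the Ras family, had 20.3 CPM in members and 10.4 CPM in matched cells in S961, 17 and 8.21 CPM in recovered, and 22.5 and 14.9 CPM in control (log2 0.85 ± 0.16, edgeR adjusted p = 0.0183). Itgb8, an integrin subunit that helps to activate latent TGF-beta, had 28.5 and 17.8 CPM, 22.4 and 14.1 CPM, and 31.1 and 21.9 CPM in the same pairs (log2 0.62 ± 0.12, adjusted p = 0.0357). The intervals of the log2 ratio lay above 0 in S961 and control for both genes. Hmox1, the haem oxygenase induced by oxidative stress, had 134 and 111 CPM in S961, 189 and 86.0 CPM in recovered, and 187 and 119 CPM in control, members first (log2 0.59 ± 0.11, adjusted p = 0.0128). A few cells weighed on Hmox1: 1 recovered member held 100 of the 245 UMIs, and without the highest cell of each sum the adjusted p was 0.11. Csrp2, a LIM-domain protein, was sparse, with 36 UMIs in 295 S961 members, 2 in 90 recovered members and 19 in 238 control members (log2 1.54 ± 0.32, adjusted p = 0.0493). Without the S961 library the edgeR adjusted p was 0.50 for Diras2 and 0.74 for Itgb8, and Tmem252 and Csrp2 had too few UMIs to be tested. For Csrp2 it was 0.16 without the control library.

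Fewer genes were lower. Rasd1, a Ras-related GTPase induced by glucocorticoids, had 22.6 CPM in members and 29.8 CPM in matched cells in S961, 26.2 and 63.0 CPM in recovered, and 34.2 and 51.4 CPM in control (log2 -0.63 ± 0.13 SE, edgeR adjusted p = 0.0448). Its call was lost in 6 of 18 settings, among them 1 matched cell per member (adjusted p = 0.123) and 2 or more Aldh1a3 UMIs (adjusted p = 0.658), and its adjusted p over all settings ran from 1.2e-05 to 1. Pyy, which codes for the gut and islet hormone peptide YY, had 198 and 301 CPM in S961, 106 and 401 CPM in recovered, and 205 and 395 CPM in control, members first (log2 -1.03 ± 0.14, adjusted p = 0.00088). Similar shares of cells held Pyy on both sides, 51.5% and 52.2% in S961, 58.9% and 55.9% in recovered, and 60.5% and 62% in control. Some cells had very high content, up to 495 UMIs in members and 1228 UMIs in matched cells. The Pyy call depended on the insulin limit: with at least 25% insulin UMIs its log2 fold change was -0.15 (edgeR adjusted p = 0.963), and DESeq2 did not call it (adjusted p = 1). Rbp4, the plasma carrier of retinol, had 4.42 and 10.8 CPM in S961, 5.40 and 21.9 CPM in recovered, and 22.1 and 30.9 CPM in control (log2 -1.01 ± 0.21, adjusted p = 0.0436). Pyy is also a marker of PP cells and Rbp4 of delta cells, so both stand outside the rule for named genes and were named after their values were seen. The PP list summed to 411 CPM in members and 475 CPM in matched cells in S961, 359 and 516 CPM in recovered, and 404 and 623 CPM in control, and the delta list to 73.8 and 104, 106 and 193, and 123 and 159 CPM. The PP list includes Pyy and the delta list Rbp4, so these sums are not separate from the Pyy and Rbp4 values. Pyy itself made up 198 and 301 CPM of the PP sums in S961, 106 and 401 in recovered, and 205 and 395 in control. The rest of the PP sum was thus higher in members than in matched cells in S961 and recovered, and lower in control. The part of PP and delta cell RNA in the Pyy and Rbp4 results was not tested. Without the highest cell of each sum the adjusted p was 4.8e-06 for Pyy and 0.097 for Rbp4.

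**Figure D3:**
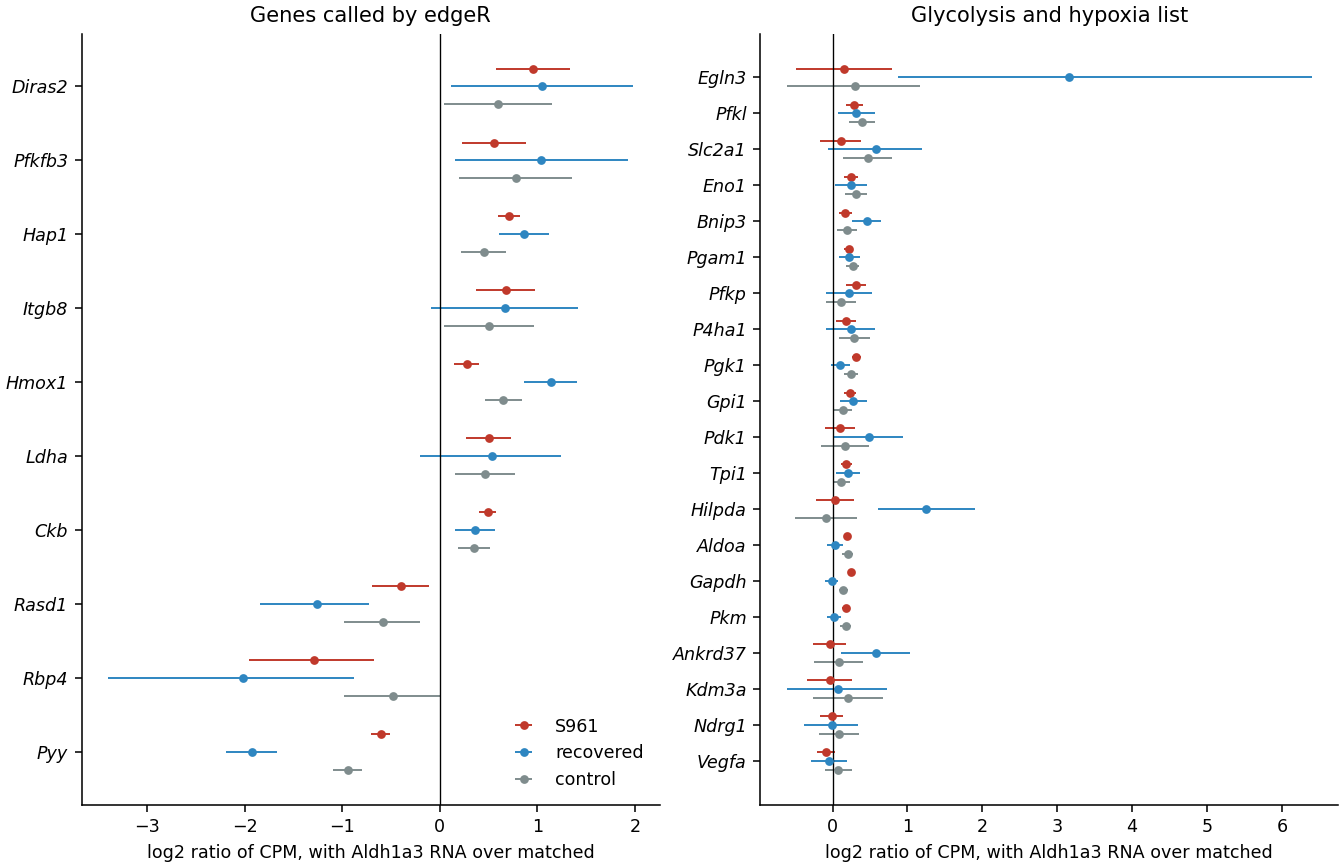
Log2 ratio of CPM in beta cells with Aldh1a3 RNA over depth-matched beta cells (x axes) in the S961, recovered and control libraries, with exact 95% intervals for counting error. The left panel shows 10 genes called by edgeR, with 7 higher and 3 lower, and the right panel the 20 tested genes of the glycolysis and hypoxia list, 19 of which had a fitted log2 fold change above 0 and none of which passed the adjusted p of 0.05.

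Of the 41 calls, 11 were in the marker lists of other cell types, Pyy and Rbp4 among them, and others rested on a few cells. The lower genes Gpihbp1 and Fabp4 are made by capillary endothelium, and 78 Gpihbp1 UMIs were found in the matched cells of S961 against 2 in members. Fabp4 had 35 UMIs in members and 327 in matched cells there, and 147 of those 327 lay in 1 matched cell. The endothelial list stood at 13.2 CPM in members and 46.9 CPM in matched cells in S961, 13.9 and 7.43 CPM in recovered, and 8.11 and 10.8 CPM in control. Rnase1 and the chymotrypsin-like protease gene Ctrl were lower with 19 and 216 UMIs in S961 members and 125 and 734 in matched cells. Tmem252 was higher, and 145 of its 157 UMIs in S961 members were in 1 cell. The immunoglobulin gene Igkc was called higher on 2500 UMIs of which 2495 were in 1 member. Without the cells that held 20 or more UMIs of other types, edgeR called 15 genes higher and 4 lower, and 12 of the 41 were called again. Without the highest cell of each gene in each sum, it called 11 higher and 14 lower, with 18 shared. The 7 genes called in all 3 fits were Diras2, Hap1, Itgb8, Ldha and Ckb (higher) and Rasd1 and Pyy (lower). Over all 18 settings, some chosen after seeing the data, Itgb8 lost its call in 10, Ldha in 9, Rasd1 in 6, Diras2 and Ckb in 4 each, Pyy in 3 and Hap1 in 1.

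Mature beta-cell genes were described by a list of 30, and 0 of 30 passed the edgeR test over the 3 libraries, with 2 higher (Abcc8 and Mnx1) and 5 lower (Slc2a2, Slc30a8, Trpm5, Sytl4 and Ero1lb) at an unadjusted p under 0.05. The 5 lower genes were 16.7% of the list, where 2.71% of all genes tested were lower. Over all 30 genes of the list the median log2 fold change was -0.00, beside 0.00 over all genes tested. Pdx1, a transcription factor of beta cells, had 78.3 CPM in members and 69.6 CPM in matched cells in S961, 98.8 and 108 CPM in recovered, and 104 and 109 CPM in control. Nkx6-1, another such factor, had 177 and 157 CPM, 191 and 216 CPM, and 201 and 194 CPM in the same pairs. Ucn3, a peptide that marks mature beta cells, had 98.8 and 76.5 CPM in S961, 127 and 138 CPM in recovered, and 92.4 and 82.7 CPM in control. The edgeR adjusted p was 1 for Pdx1 and Nkx6-1 and 0.878 for Ucn3. For Pdx1, Nkx6-1 and Ucn3 the sign differed between libraries, and a p above the threshold does not show that the levels are equal. Iapp, the amyloid peptide secreted with insulin, differed by a log2 of 0.06 (adjusted p = 0.879), and Glp1r was low everywhere, at 1.80 to 4.73 CPM.

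Genes linked to immature or dedifferentiated beta cells gave 0 calls higher and 1 lower (Pyy) among 13 tested of 23. Of all genes tested, 0.214% were called higher and 0.167% lower. At an unadjusted p under 0.05, 3 of the 13 were higher (23.1%, beside 3.35% of all genes) and 2 lower (15.4%, beside 2.71%). The list's median log2 fold change was 0.15, and 9 of the 13 were positive (69.2%, beside 51.5% of all genes). These counts carry no test. Gast, the gastrin gene that is off in adult beta cells, had 8.50 CPM in members and 4.59 CPM in matched cells in S961, 10.0 and 1.17 CPM in recovered, and 3 UMIs in 238 members and 0 UMIs in 476 matched cells in control. Its fitted log2 fold change was 1.34 ± 0.37 (edgeR adjusted p = 0.272). Neurog3, the endocrine progenitor factor, had 2.45 and 2.61 CPM in S961, 3.09 and 3.52 CPM in recovered, and 2.70 and 1.13 CPM in control (adjusted p = 1). Cck, another gut hormone, had 22.4 and 18.8 CPM, 9.26 and 4.30 CPM, and 10.4 and 8.34 CPM in the same pairs (adjusted p = 0.844). Gc, the vitamin D-binding protein, and the tetraspanin Cd81 had positive values of 0.46 and 0.41 that missed the threshold (adjusted p = 0.134 and 0.178).

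The retinoid list gave 1 call each way among 14 tested of 29 genes, with a median log2 of 0.10. Rarres2 was called higher on 51 UMIs in S961 members, 26 of them in 1 cell, and Rbp4 was called lower. The related Aldh1a1 had 0 UMIs in members of all 3 libraries and 4, 1 and 1 UMIs in matched cells of S961, recovered and control. Aldh1a2 had 1, 0 and 4 UMIs in members and 0 in matched cells, so both were too sparse to compare. Rdh10, which makes retinaldehyde, the substrate of Aldh1a3, had 4.25 CPM in members and 4.77 CPM in matched cells in S961, 5.40 and 5.48 CPM in recovered, and 3.15 and 4.96 CPM in control (edgeR adjusted p = 0.989).

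Most genes of a glycolysis and hypoxia list had higher values in members. The list does not hold the called genes Ldha, which stands in the disallowed list, and Pfkfb3. Of 20 tested, 0 were called and 19 had a positive fitted value (95%, beside 51.5% of all genes tested), with a median log2 of 0.19. At an unadjusted p under 0.05, 13 were higher and 0 lower, where 3.35% of all genes were higher, and 14 were higher in all 3 libraries, as were 13.8% of all genes. The list's median was 0.18 in S961, 0.23 in recovered and 0.19 in control. Pfkl, the liver-type phosphofructokinase, had 162 CPM in members and 132 CPM in matched cells in S961, 171 and 138 CPM in recovered, and 207 and 158 CPM in control (log2 0.32, edgeR adjusted p = 0.0537). Pgk1 had 612 and 492 CPM, 576 and 536 CPM, and 738 and 621 CPM, and Eno1 had 269 and 226 CPM, 216 and 182 CPM, and 265 and 213 CPM in the same pairs. These adjusted p-values were 0.251 for Pgk1 and 0.143 for Eno1. Genes of one pathway do not vary independently, and these counts carry no test.

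The remaining lists had 3 calls between them. The unfolded protein response, amino acid response, granule, FoxO, heat shock, interferon, respiratory chain, lipid synthesis, cell cycle and hormone lists had no calls, with medians between -0.08 and 0.14. At an unadjusted p under 0.05, 6 of 23 genes of oxidative stress defence and 4 of 13 of the cell cycle were higher (3.35% of all genes), and 3 of 20 of lipid synthesis were lower (2.71% of all genes), 9 of those 20 being lower in all 3 libraries (12.6% of all genes). The disallowed list had 1 call (Ldha, higher) of 5 tested, but its median log2 was -0.22 and 2 of the 5 were positive. Lower in all 3 libraries were 3 of its 5 genes (60%, beside 12.6% of all genes). Oxidative stress defence had 1 call (Hmox1) of 23. Senescence had 1 of 25, Igfbp3, which was lower with 245 UMIs in the matched cells of S961 and 26 in members. Of all genes tested, 0.214% were called higher and 0.167% lower. Cdkn1a, a cell-cycle inhibitor, had a fitted log2 of 0.25 (edgeR adjusted p = 0.763), Hspa5, a chaperone of the endoplasmic reticulum, -0.01, Ddit3, a stress factor, -0.20, Txnip, which binds thioredoxin, -0.08, and Igf1r, a receptor of insulin-like growth factor, 0.12, none of them past the threshold.

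Levels were also given by the amount of Aldh1a3 RNA. In S961, Hap1 stood at 124 CPM in matched cells, 177 in members with 1 Aldh1a3 UMI, 198 with 2 and 240 with 3 or more. In recovered it stood at 104, 181, 192 and 214 CPM along the same steps, and in control at 86.1, 116, 111 and 135 CPM. Pyy ran the other way, at 301, 293, 136 and 121 CPM in S961, 401, 124, 58.0 and 86.4 CPM in recovered, and 395, 214, 236 and 104 CPM in control. Hap1 was lowest in matched cells and highest at 3 or more UMIs in each library, and Pyy was highest in matched cells in each. Ckb and Itgb8, also called, did not rise at each step in any library. Ckb had 180, 250, 166 and 183 CPM in control. Itgb8 had 17.8, 31.4, 26.9 and 25.9 CPM in S961 and 14.1, 25.3, 22.3 and 12.3 CPM in recovered. With members limited to 2 or more Aldh1a3 UMIs, the edgeR adjusted p was 0.785 for Ckb and 0.861 for Itgb8. Diras2 had 10.4, 17.6, 17.2 and 25.9 CPM in S961, 8.21, 16.9, 26.8 and 8.23 CPM in recovered, and 14.9, 20.3, 34.9 and 19.9 CPM in control, lowest in matched cells of each library but highest at 3 or more UMIs in S961 alone. Median depth in S961 was 19769, 17600, 19528.5 and 23612.5 UMIs along the steps, and its part was not tested. Only 14 recovered members had 2 Aldh1a3 UMIs and 14 had 3 or more, so their steps rest on few cells. In control, 8 of the 26 cells with 3 or more UMIs were the Timp1 and Il11 cells described last, and without them this step had 166 CPM of Hap1, 98.8 CPM of Pyy and 20.8 CPM of Diras2 in 18 cells.

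Within the recovered library, members had more Gpx3, Scg2, Chgb, Gdf15 and Cdkn1a RNA and less Mafa, Slc2a2, Slc30a8 and Sytl4 RNA than matched cells, and each of these genes had the same sign between S961 and control beta cells without Aldh1a3. With 1 library this is a comparison of cells within it, no p-value was computed, and whether the libraries differ in it was not tested. Gpx3, the secreted glutathione peroxidase, had 260 CPM in members and 228 CPM in matched cells in S961, 200 and 46.5 CPM in recovered, and 11.7 and 14.4 CPM in control. The recovered log2 ratio was 2.10 (95% interval 1.78 to 2.43), and 52.2% of members and 16.8% of matched cells there held a Gpx3 UMI. The recovered value lay between those of S961 and control in members and in matched cells.

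Granule proteins are given next. Scg2, a granin, had 5138 CPM in members and 4738 CPM in matched cells in S961, 3888 and 2513 CPM in recovered, and 2433 and 2236 CPM in control. The related Chgb had 3317 and 3398 CPM, 2797 and 1649 CPM, and 1871 and 1692 CPM in the same pairs. The recovered log2 ratio was 0.63 for Scg2 and 0.76 for Chgb (0.70 to 0.83). Cdkn1a had 156 and 154 CPM in S961, 120 and 68.4 CPM in recovered, and 82.5 and 66.5 CPM in control. Gdf15, a stress-induced cytokine, had 36.6 and 26.8 CPM, 34.7 and 11.7 CPM, and 18.0 and 13.5 CPM. In the recovered library the interval of the ratio lay above 0 for all of these genes.

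**Figure D4:**
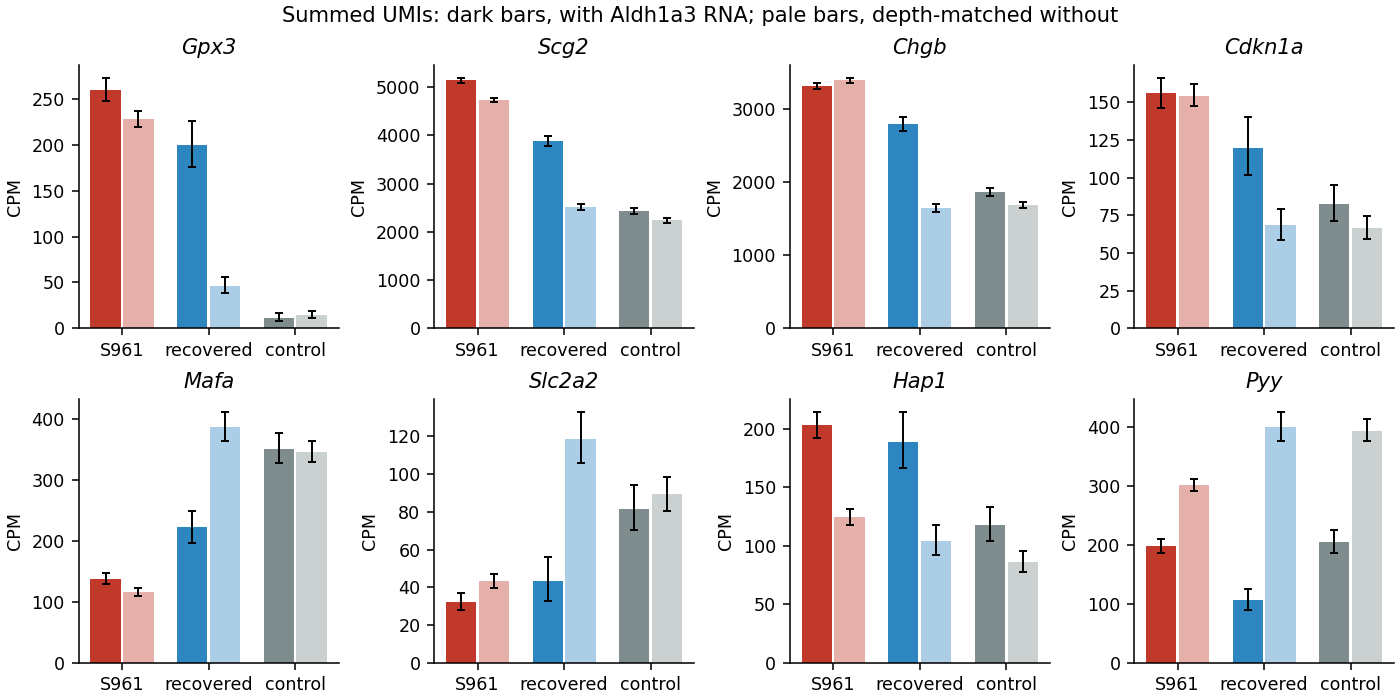
CPM of 8 genes (y axes) in summed UMIs of the S961, recovered and control libraries, with dark bars for beta cells with Aldh1a3 RNA, pale bars for depth-matched beta cells without it, and exact Poisson 95% intervals for counting error. In the recovered library the dark bar is higher than the pale one for Gpx3, Scg2, Chgb, Cdkn1a and Hap1 and lower for Mafa, Slc2a2 and Pyy.

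Several genes of mature beta cells had lower values in the same cells. Mafa, a transcription factor of mature beta cells, had 137 CPM in members and 116 CPM in matched cells in S961, 221 and 386 CPM in recovered, and 351 and 346 CPM in control, with a recovered log2 ratio of -0.80 (-1.0 to -0.61). Slc2a2, the main glucose transporter of mouse beta cells, had 32.2 and 43.1 CPM, 43.2 and 119 CPM, and 81.6 and 89.2 CPM in the same pairs (recovered -1.46, -1.90 to -1.05). Slc30a8, the zinc transporter of insulin granules, had 145 and 174 CPM, 203 and 369 CPM, and 238 and 257 CPM. Trpm5, a cation channel, had 17.3 and 25.8 CPM in S961, 36.3 and 69.2 CPM in recovered, and 75.7 and 73.0 CPM in control. Over the 3 libraries none of these passed edgeR's test (adjusted p = 0.988 for Mafa, 0.233 for Slc2a2, 0.169 for Slc30a8 and 0.598 for Trpm5).

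The comparison was widened to all genes that separated S961 from control beta cells without Aldh1a3, a list that uses no recovered cell and no member. Of 6594 genes with enough UMIs, 134 were at least 1.5-fold higher in S961 and 153 at least 1.5-fold lower. In the recovered library, 42 of the 134 higher genes were at least 1.5-fold higher in members than in matched cells (31.3%, where 4.09% of all genes were), and 106 of the 134 had a ratio above 0. Their median log2 ratio was 0.37, beside 0.01 over all genes. Of the 153 lower genes, 33 were at least 1.5-fold lower in recovered members (21.6%, where 4.08% of all genes were), and 31 had a ratio above 0, with a median of -0.20. The medians ran from 0.27 to 0.40 and from -0.27 to -0.19 over 9 settings chosen after seeing the data, among them matching on the mitochondrial share and leaving out cells with RNA of other types.

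Genes at the top of that comparison were named after their values were seen. Higher in recovered members were Serpina7, a thyroxine carrier, with 113 CPM in members and 43.0 CPM in matched cells, Ttr, another, with 802 and 383 CPM, where 1 member held 342 of 1039 UMIs, and Gc with 187 and 88.4 CPM. In S961 the values were 122 and 127 CPM for Serpina7, 905 and 831 CPM for Ttr, and 255 and 225 CPM for Gc. In control they were 78.9 and 61.3 CPM for Serpina7, 267 and 233 CPM for Ttr, and 105 and 76.8 CPM for Gc, so control members were also above their matched cells. The alpha list, which includes Ttr, stood at 967 CPM in members and 568 CPM in matched cells of recovered, and its markers Irx1 and Pou3f4 were at 0 in both. Lower were Ppp1r1a, an inhibitor of protein phosphatase, with 64.1 and 163 CPM, Sytl4, a granule docking protein, with 54.0 and 124 CPM, and Pyy, whose log2 ratio of -1.92 ran from -3.46 to -1.14 over the 9 settings. Hmox1 (189 and 86.0 CPM) and Cd81 (176 and 86.0 CPM) were higher in recovered members without having differed by 1.5-fold between S961 and control.

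**Figure D5:**
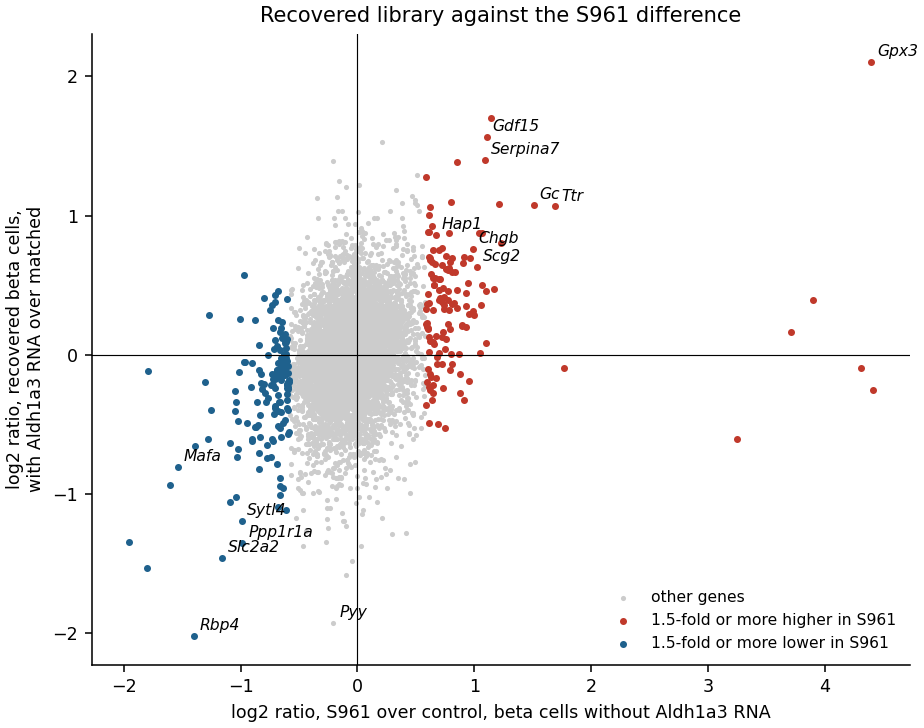
Each point is 1 of 6594 genes. The x axis gives the log2 ratio of S961 over control in beta cells without Aldh1a3 RNA and the y axis the log2 ratio of recovered beta cells with Aldh1a3 RNA over their depth-matched cells. Genes 1.5-fold or more higher in S961 (134, right) lie mostly above 0 on the y axis, with Gpx3 at 2.10, and genes 1.5-fold or more lower (153, left) mostly below 0.

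The next comparison set members of the S961 library against members of control. Of 8824 genes with at least 50 UMIs over both, 509 were at least 1.5-fold higher in S961 members (5.77%) and 650 at least 1.5-fold lower (7.37%), with a median log2 ratio of -0.09. Scaled to UMIs outside insulin and mitochondrial genes, the balance was the other way, with 575 higher and 503 lower. There is 1 library on each side, so these counts have no replicate check. Gpx3 was 22.2-fold higher, with 260 CPM in S961 members and 11.7 CPM in control members, beside 228 and 14.4 CPM in the matched cells of S961 and control. Txnip had 57.2 and 31.1 CPM in members and 59.1 and 32.0 CPM in matched cells, and Cdkn1a had 156 and 82.5 CPM in members and 154 and 66.5 CPM in matched cells. Both classes of beta cell thus differed between these libraries by like amounts for these genes.

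Lower in S961 members were Crybb3, a crystallin, with 104 CPM in S961 and 574 CPM in control members (157 and 511 CPM in matched cells), and Trpm5, with 17.3 and 75.7 CPM (25.8 and 73.0 CPM in matched cells). Mt2, a metallothionein, had 137 and 421 CPM in members and 123 and 440 CPM in matched cells. Fam151a had 37.1 and 105 CPM in members and 46.0 and 107 CPM in matched cells. Mafa had 137 and 351 CPM in members, against 116 and 346 CPM in matched cells. The stress factor Ddit3 was at 102 CPM in S961 and 204 CPM in control members, beside 142 and 185 CPM in matched cells. Hap1 had 203 and 118 CPM in members and 124 and 86.1 CPM in matched cells. The rule also named Reg2, Pnliprp1, Sycn, Tmem252, Ctrl, Reg3b and Klk1 as higher in S961, and for these 7 genes most UMIs came from 1 cell (604 of 617 for Reg2, 64 of 77 for Klk1).

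Members of the recovered library were set against members of control in the same way. Of 6259 genes, 281 were at least 1.5-fold higher in recovered members (4.49%) and 338 at least 1.5-fold lower (5.4%). Gpx3 ranked first among the higher genes, with 200 CPM in recovered and 11.7 CPM in control members, a 17.1-fold difference, while the matched cells had 46.5 and 14.4 CPM. Nupr1, a stress-response regulator, had 1401 and 778 CPM in members and 1092 and 786 CPM in matched cells. Clcn5, an endosomal chloride exchanger, had 44.0 and 15.8 CPM in members and 18.0 and 22.1 CPM in matched cells. The surface protein Cd200 had 43.2 and 17.6 CPM in members and 19.6 and 22.8 CPM in matched cells. Etv1, an ETS-family transcription factor, had 90.3 and 40.6 CPM in members, Satb1, a chromatin organiser, 33.2 and 12.2 CPM, Fxyd6, a sodium pump regulator, 147 and 73.4 CPM, and Ctsf, a cathepsin, 37.8 and 15.3 CPM. For Clcn5, Cd200 and Ctsf the interval of the matched cells' own ratio included 0.

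Lower in recovered members were the metallothioneins Mt1, with 559 CPM in recovered and 1481 CPM in control members, and Mt2, with 125 and 421 CPM. Their matched cells showed 641 and 1620 CPM for Mt1 and 135 and 440 CPM for Mt2. Crybb3 had 97.2 and 574 CPM in members and 153 and 511 CPM in matched cells, and Ldha had 23.2 and 68.5 CPM in members and 16.0 and 49.6 CPM in matched cells. These genes were lower in recovered beta cells of both classes.

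Timp1, Il11, Tnc and Inhba were named as lower in both comparisons with control, and few control cells held that RNA. Of 238 control members, 8 held at least 5 Timp1 UMIs (an inhibitor of metalloproteinases) and at least 1 of the cytokine gene Il11, against 0 of 295 in S961 and 0 of 90 in recovered. They were singled out after their values were seen and are described without a test. These 8 cells carried 99.5% of the Timp1 UMIs of control members, 99.2% of Il11, 98.8% of Col1a1, all UMIs of Tnc, Col1a2, Col3a1 and Sparc, and 74.5% of Inhba. Each held 3 to 10 Aldh1a3 UMIs, 33 in all, and insulin made up 17% to 23.9% of their UMIs. Dcn was found in 6 of the 8 and Lum in 3, with 100% of the control members' UMIs of both. Pdgfrb and Rgs5, pericyte markers in the same stromal list, were at 0 in them. Of the 8 cells, 0 were among the 6% of cells with the highest doublet score. Among 2608 control beta cells without Aldh1a3, 1 cell met the same 2 limits. Control members had 174 CPM of Timp1 and 54.1 CPM of Il11, against 2.03 and 0.676 CPM in matched control cells. Il11 was not restricted to them, since the matched cells of S961 had 19.8 CPM. The part of RNA from other cells in these values was not tested.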

How the data were processed

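The authors deposited a table of counts: UMIs per gene and barcode, 31053 genes by 24590 barcodes, and every value was whole. Cell Ranger (version not given in the sources used here) and the mm10 build are listed, per the submitters' processing notes. Per the labels, the barcode suffix gives the library. No barcode held under 500 UMIs. Library totals were 47651767 UMIs in S961, 40102058 in recovered and 38265969 in control, and members summed to 6115025, 1295856 and 2219383 UMIs.

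Beta cells were taken by the rule given in the report, not by clustering. Doublets were not removed: Scrublet (scanpy 1.11.5, expected rate 0.06) only ranked cells, and the 6% with the highest score in each library were left out in an alternative. The other classes, used for background, had insulin under 15% of UMIs and were named from markers. Members, gene lists and tests were chosen with earlier results of these data known.

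For each member, the 2 nearest unused beta cells of its library without an Aldh1a3 UMI, within 10% in total UMIs, were taken as matched. UMIs were summed over the 6 sets of cells and tested with edgeR 4.0.16 (R 4.3.3; TMM, quasi-likelihood, library as block) on genes with 60 or more UMIs. Aldh1a3, Ins1, Ins2, Gcg, Sst, Ppy, Ftl1, Ftl1-ps1 and mitochondrial genes, which the rule uses, were left out. The 3 libraries are the units, and the labels do not give the number of mice in each. With the library as block, p-values measure only the spread of the ratio of members to matched cells over the 3 libraries. They do not measure the spread between cells or between mice, and UMIs of the same cell are counted as separate. Comparisons between libraries use CPM of summed UMIs with exact conditional binomial intervals and no test. Genes with 200 or more UMIs in S961 and control cells without Aldh1a3 and 50 or more in the recovered sums entered the comparison of the recovered library.

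Named genes were those with an adjusted p under 0.05 and the same direction in all 3 libraries, up to 12 each way, leaving out mitochondrial and ribosomal genes, unnamed gene models and markers of other cells. Between libraries they were the 8 highest and 8 lowest by the interval bound nearest 0, and 25 key genes were always given where measured. Alternatives, some chosen after seeing the data, covered DESeq2 1.42.0, scaling, filters, matching, the block and each library left out. A few genes are not reported here. Coordinates come from GENCODE M21 (GRCm38). The edgeR step was tested on simulated counts first. Python 3.11.15, numpy 2.4.6, scipy 1.17.1, pandas 2.3.3 and matplotlib 3.10.9 were used.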

Additional observations from a re-analysis of the deposited data

Results flagged for a closer look

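Some genes moved in opposite directions in members over matched cells of different libraries, with counting intervals that exclude 0 on both sides; the differences between libraries were not tested. Mafa had a log2 ratio of 0.25 in S961 and -0.80 in recovered. Chgb had -0.0350 in S961, 0.76 in recovered and 0.15 in control. Iapp had 0.14 in S961, 0.12 in recovered and -0.0264 in control. Hspa5 had -0.12 in recovered and 0.0733 in control.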

How the results depend on the processing

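The order of the shares (S961, control, recovered from high to low) held at every setting, but the level moved with depth: thinning to 5000 and 2000 UMIs gave 11.0% and 5.24% in S961, 2.64% and 1.34% in recovered, and 6.09% and 2.84% in control, and asking for 2 or more UMIs gave 9.62%, 1.36% and 2.14%. The count of genes higher in members was 2 with DESeq2, 64 with no filter, 35 with 4 matched cells, 61 without matching, 9 at 25% insulin, 44 without high doublet scores, 0 with no block, and 15 and 11 without cells with RNA of other types and without the highest cells, the last 2 chosen after seeing the data. The count lower was 1, 40, 36, 0 and 4 with DESeq2, no filter, no matching, no block and no cells with RNA of other types. Leaving out 1 library gave 25 to 68 higher and 16 to 33 lower, and without S961 only 8 of the 41 were called again. Between S961 and control members the counts were 929 higher at 20 or more UMIs, and 121 higher and 202 lower at 200 or more. Between recovered and control they were 764 and 773 at 20, 31 and 50 at 200, and 116 higher at 2 or more Aldh1a3 UMIs. No direction reversed for the genes named between members and matched cells; genes named between libraries were not rerun singly. The causes of these moves were not tested, except that higher count limits leave fewer genes. The block pairs members with matched cells of a library, and with no replicate block 0 genes were called. At 1 to 3 UMIs, Aldh1a3 counts cannot show which cells without a UMI express it.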

Other observations

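Several genes of cell division had few UMIs, and most of the list had higher values in members. Mki67, a marker of dividing cells, had 3.76 CPM in members and 1.89 CPM in matched cells in S961, 4.63 and 0.391 CPM in recovered, and 3.60 and 0.676 CPM in control (log2 1.52, edgeR adjusted p = 0.311). Ccnd1, cyclin D1, had 185 and 155 CPM, 152 and 118 CPM, and 126 and 106 CPM in the same pairs (log2 0.27, adjusted p = 0.209). Of the 23 Mki67 UMIs in S961 members 12 were in 1 cell, and 13 of 21 in the matched cells. The recovered and control sums held fewer Mki67 UMIs than these, so their ratios rest on very few counts. Of 13 tested genes of the cell cycle list, 10 had a positive fitted value (76.9%, beside 51.5% of all genes) and 0 were called.

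Of 23 tested genes of oxidative stress defence, 15 had a positive fitted value, and 2 that did not pass the test are given as examples chosen after their values were seen. Srxn1, sulfiredoxin, had 75.6 CPM in members and 63.8 CPM in matched cells in S961, 84.9 and 66.5 CPM in recovered, and 83.4 and 65.1 CPM in control (log2 0.29, edgeR adjusted p = 0.251). Gclc, which starts glutathione synthesis, had 42.0 and 33.7 CPM, 44.8 and 30.5 CPM, and 32.9 and 28.4 CPM (log2 0.34, adjusted p = 0.427). Of 20 tested genes of lipid synthesis, 7 had a positive fitted value and 0 were called. Chosen in the same way from that list, Insig1 had 27.3 and 34.9 CPM, 23.2 and 30.9 CPM, and 20.7 and 22.8 CPM in the same pairs (log2 -0.31, adjusted p = 0.668). Gast lies on chromosome 11 at 100334407 to 100336996 of GRCm38, close to Hap1. Its values were higher in members of all 3 libraries, but it did not pass the test and had few UMIs. Recovered members with 1, 2 and 3 or more Aldh1a3 UMIs held 10, 0 and 3 Gast UMIs, and the 179 matched cells held 3. Whether the position bears on these values was not tested.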
